A study of Mus musculus with 4 samples.

Results

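The data described here are the transcript levels of 9 transcription factor genes known from the trophoblast, the lineage that forms the fetal part of the placenta: Tfap2a, Tfap2c, Hand1, Cdx2, Eomes, Elf5, Gata2, Gata3 and Ets2. They are 9 of the 18193 genes named on the array, chosen by name as regulators of that lineage, and 20 probe sets read them. The cells were mouse embryonic fibroblasts (MEFs) in the course of reprogramming, in which introduced transcription factors push a differentiated cell toward pluripotency. They were fixed, permeabilized, stained and sorted into 4 fractions, with 1 array for each. In what is called the gate order below, these are the Oct4-negative cells, the Oct4+Klf4-negative cells, the Oct4+Klf4+EpCAM-negative cells and, last, the Oct4+Klf4+EpCAM+ cells. Oct4 and Klf4 are reprogramming factors and EpCAM is an adhesion protein of epithelial cells. The labels do not give the mouse strain, the factors introduced, their delivery, the day of the sort, or whether the Oct4-negative cells and the others grew in 1 culture. A Klf4 gate is not named for the Oct4-negative cells, nor an EpCAM gate for the Oct4+Klf4-negative ones.

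Values are log2 levels from robust multi-array average (RMA) processing. With 1 array a fraction there is no replicate check, no test and no error for any difference, and precision is limited by the number of arrays. A gene counted as measured where its brightest probe set reached 4.53, the median of all values, on 1 array or more, which 11429 genes did. It was called higher or lower where the difference was at least 2-fold and the brighter level reached that floor. Levels at or below 2.94, the brightest reading of 27 bacterial control probe sets with no matching transcript, are background. Levels of different probe sets are not comparable, so each is read only against itself across the arrays. In sorted bulk samples, fewer cells that express a gene and less RNA per cell cannot be told apart.

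The arrays had medians of 4.49 to 4.55. Pou5f1, which encodes Oct4, had levels of 11.48 to 11.70 on the Oct4-positive arrays and of 7.59 on the Oct4-negative one. Klf4 by its brighter probe set had levels of 10.20 and 10.60 on the Klf4-positive arrays and of 7.32 and 6.24 on the other two, while its other probe set ran the opposite way, with 2.67 and 3.20 against 6.95 and 5.69. Epcam had 9.52 on the EpCAM-positive array and 6.54 on the Oct4+Klf4+EpCAM-negative one. Of 14 fibroblast markers, 13 were measured, and Pdgfra, a growth factor receptor of many fibroblasts, was below the floor on every array. The number of these markers at or above the floor was 13, 13, 12 and 11 in gate order, and their median level was 8.43, 8.70, 6.47 and 5.31.

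In the mouse blastocyst the outer cells become trophectoderm, the origin of the trophoblast, while the inner cells keep Oct4. Tead4 with its cofactor YAP switches on Cdx2 and Gata3 in the outer cells, and Cdx2 and Oct4 repress each other. Trophoblast stem cells depend on FGF4 signalling through Fgfr2 and on a circuit of Cdx2, Eomes, Elf5, Tfap2c and Ets2, whereas Hand1 drives differentiation into trophoblast giant cells, and Gata2 and Gata3 act on placental hormone genes. Most of these factors also work elsewhere: the AP-2 proteins, Gata3 and Elf5 in epidermis or mammary gland, Tfap2a and Hand1 in neural crest derivatives, Gata2 in blood stem cells, Gata3 in T cells, Eomes in early mesoderm and Cdx2 in the gut.

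The 9 genes lie on 7 chromosomes, with Gata3, Elf5 and Tfap2c all on chromosome 2. RefSeq promoter windows, from 250 bases before to 50 bases after an annotated start (build GRCm38.p6), were matched for 7 of the 9 genes, all but Tfap2c and Hand1, with 10 windows in all. They were searched on both strands for the AP-2 letters GCCNNNGGC, which read the same on both strands, the GATA letters AGATAA, the ETS letters CCGGAA and the KLF letters GGGNGTGG, since proteins of these families are among the 9 genes or the sorted factors. AP-2 letters were found in 3 of the 10 windows and KLF letters in 3, against 16.6% and 17.6% of all 32851 windows of the same length. The windows with either motif were 55.3% to 73.7% G or C bases, against a median of 52.7% over all windows. The shares were not matched for this content. ETS letters were in 1 and GATA letters in 0 of the 10, against 14.9% and 11.2% of all windows. The 3 windows below are shown because they hold KLF or AP-2 letters and because their genes behaved differently: Elf5 was higher in the EpCAM-positive fraction, Gata3 was higher past the Klf4 gate, and Cdx2 stayed at background. Capitals mark the matches.
Elf5, chr2:103423818-103424117, plus strand: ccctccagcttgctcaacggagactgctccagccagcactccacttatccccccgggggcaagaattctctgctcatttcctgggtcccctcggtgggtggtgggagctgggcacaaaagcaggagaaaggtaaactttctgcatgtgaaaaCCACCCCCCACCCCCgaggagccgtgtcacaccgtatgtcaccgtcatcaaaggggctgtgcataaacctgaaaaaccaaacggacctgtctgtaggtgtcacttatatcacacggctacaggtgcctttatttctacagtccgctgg
Gata3, chr2:9878551-9878850, minus strand: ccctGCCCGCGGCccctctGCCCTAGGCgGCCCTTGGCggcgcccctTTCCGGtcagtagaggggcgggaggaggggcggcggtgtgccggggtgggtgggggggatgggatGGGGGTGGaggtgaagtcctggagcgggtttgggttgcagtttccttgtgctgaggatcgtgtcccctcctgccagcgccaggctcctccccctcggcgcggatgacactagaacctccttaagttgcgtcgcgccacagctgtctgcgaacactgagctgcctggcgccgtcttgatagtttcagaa
Cdx2, chr5:147307200-147307499, minus strand: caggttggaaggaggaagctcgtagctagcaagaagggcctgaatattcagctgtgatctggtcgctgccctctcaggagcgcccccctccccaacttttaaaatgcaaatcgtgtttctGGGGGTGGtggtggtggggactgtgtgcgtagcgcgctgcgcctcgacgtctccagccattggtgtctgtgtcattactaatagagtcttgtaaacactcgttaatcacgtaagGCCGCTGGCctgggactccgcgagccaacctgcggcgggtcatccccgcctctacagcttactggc
The Elf5 window is at the downstream of 2 annotated starts and holds 2 overlapping KLF matches, beginning 98 and 91 bases before the start, while the upstream window of Elf5 (chr2:103411848-103412147) held none of the 4 motifs. The Gata3 window holds 3 AP-2 matches, 1 ETS match and 1 KLF match, and the Cdx2 window 1 AP-2 and 1 KLF match. A match of letters is a description, not a bound site, and a role of the motifs in the levels was not tested.

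Of the 9 genes, 7 were measured. Eomes and Cdx2 were below the floor on all arrays. By the shape of their levels the measured genes fell into Tfap2c, Hand1 and Elf5, which were highest in the Oct4+Klf4+EpCAM+ fraction and far lower in the Oct4-negative one, and Tfap2a, Gata3, Gata2 and Ets2, whose levels at both ends of the gate order lay within 0.41 of each other and whose lowest level was in between, in the Oct4+Klf4-negative fraction.

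**Figure D1:**
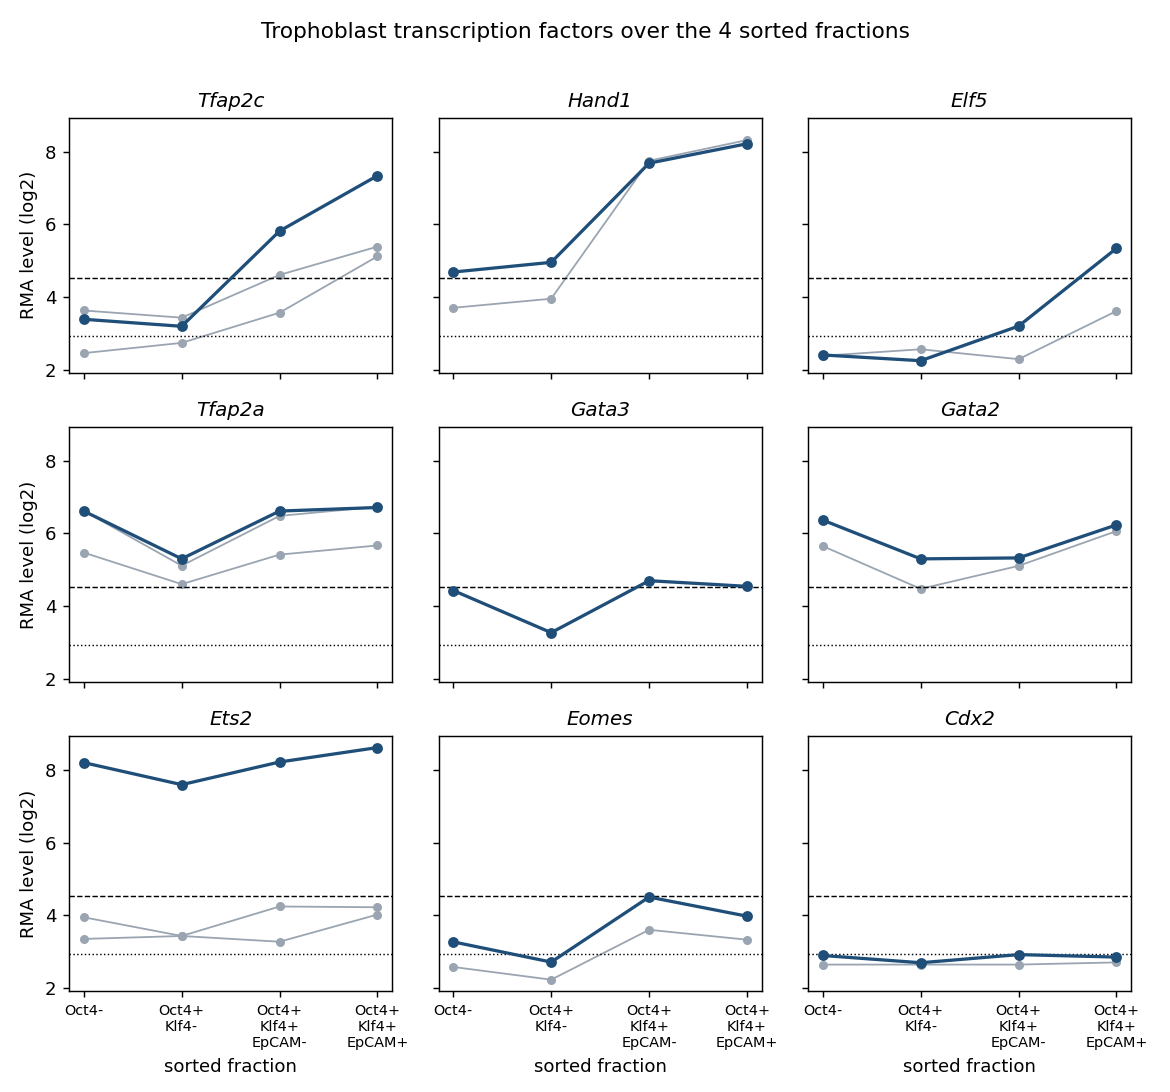
Log2 RMA levels of the 9 genes (y axis) in the 4 sorted fractions in gate order (x axis), 1 array a fraction, with the brightest probe set of each gene in dark blue and its other probe sets in grey. The dashed line is the floor of 4.53 and the dotted line the background level of 2.94. Tfap2c, Hand1 and Elf5 climb across the Klf4 or EpCAM gate, Tfap2a, Gata3, Gata2 and Ets2 dip in the Oct4+Klf4-negative fraction, and Cdx2 stays at background.

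Hand1, a basic helix-loop-helix factor that drives trophoblast giant cell formation and also acts in the heart, was at 4.69 in the Oct4-negative, 4.95 in the Oct4+Klf4-negative, 7.68 in the Oct4+Klf4+EpCAM-negative and 8.21 in the Oct4+Klf4+EpCAM+ fraction. The high levels were those of the 2 Klf4-positive fractions. Across the Klf4 gate, that is in Oct4+Klf4+EpCAM-negative against Oct4+Klf4-negative cells, it was 6.62-fold higher, a log2 difference of 2.73 that 1.64% of measured genes exceeded. Its second probe set had levels of 3.70, 3.95, 7.75 and 8.32 in gate order, so the log2 difference at the Klf4 gate was 3.79 by that reading. At the EpCAM gate Hand1 differed by 0.53 and was not called. Its paralog Hand2, a factor of heart and limb, did not exceed 4.46 and was not measured.

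Tfap2c encodes AP-2γ, which maintains trophoblast stem cells and is also found in germ cells and epidermis. Its brightest probe set had levels of 3.39 in the Oct4-negative, 3.19 in the Oct4+Klf4-negative, 5.81 in the Oct4+Klf4+EpCAM-negative and 7.34 in the Oct4+Klf4+EpCAM+ fraction. Both Klf4-positive fractions reached the floor and both of the others lay below it. The gene was 6.15-fold higher past the Klf4 gate and a further 2.87-fold higher past the EpCAM gate, and the level of the Oct4+Klf4+EpCAM+ fraction was 15.5-fold that of the Oct4-negative one. That probe set carries the mark of sets that can read several transcripts. The 2 unmarked ones rose less, with levels of 3.63, 3.43, 4.61 and 5.39 for one and of 2.46, 2.74, 3.57 and 5.12 for the other, in gate order. By the brighter of these the log2 differences were 1.18 at the Klf4 gate and 0.78 at the EpCAM gate, which is not a call.

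Elf5, an ETS family factor of trophoblast stem cells and of the milk-secreting mammary epithelium, had levels of 2.41 in the Oct4-negative, 2.25 in the Oct4+Klf4-negative, 3.20 in the Oct4+Klf4+EpCAM-negative and 5.34 in the Oct4+Klf4+EpCAM+ fraction. The last was alone above the floor, and the first pair lay in the background. Past the EpCAM gate Elf5 was 4.41-fold higher, and 0.56% of measured genes had a larger difference there. Against the Oct4-negative fraction it was at least 5.27-fold higher, taking that fraction at the background level. The second probe set stayed below the floor, with levels of 2.38, 2.56, 2.29 and 3.62 in gate order and its highest level in the same fraction.

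Tfap2a encodes AP-2α, a factor of surface ectoderm and neural crest that is present in trophoblast too. Its levels were 6.61 in the Oct4-negative, 5.30 in the Oct4+Klf4-negative, 6.61 in the Oct4+Klf4+EpCAM-negative and 6.71 in the Oct4+Klf4+EpCAM+ fraction. The Oct4+Klf4-negative fraction was thus 2.48-fold below the Oct4-negative one, and the Oct4+Klf4+EpCAM-negative fraction 2.48-fold above the Oct4+Klf4-negative one. All 3 probe sets had this dip, the others with levels of 6.62, 5.11, 6.48 and 6.73 and of 5.47, 4.60, 5.42 and 5.67 in gate order.

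Gata3, a zinc finger factor of trophectoderm, hair follicle, mammary epithelium and T cells, was read by 1 probe set. It had levels of 4.43 in the Oct4-negative, 3.27 in the Oct4+Klf4-negative, 4.70 in the Oct4+Klf4+EpCAM-negative and 4.54 in the Oct4+Klf4+EpCAM+ fraction. Past the Klf4 gate it was 2.69-fold higher. Its log2 difference at the Oct4 gate was -1.16, but neither level there reached the floor, so it was not called. All of its levels lay close to or below the floor.

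Gata2, a regulator of blood stem cells and of trophoblast giant cell genes, had levels of 6.37 in the Oct4-negative, 5.30 in the Oct4+Klf4-negative, 5.33 in the Oct4+Klf4+EpCAM-negative and 6.23 in the Oct4+Klf4+EpCAM+ fraction. It was 2.09-fold lower in the Oct4+Klf4-negative than in the Oct4-negative cells and, unlike Tfap2a and Gata3 in these values, differed by only 0.03 across the Klf4 gate. The log2 difference at the EpCAM gate was 0.91, just under the call. Its other probe set had levels of 5.65, 4.48, 5.11 and 6.06 in gate order, with a difference of 0.63 at the Klf4 gate, so the 2 readings disagree on where the level came back.

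Ets2, a target of growth factor and MAP kinase signalling that trophoblast stem cells require, had levels of 8.20 in the Oct4-negative, 7.59 in the Oct4+Klf4-negative, 8.22 in the Oct4+Klf4+EpCAM-negative and 8.61 in the Oct4+Klf4+EpCAM+ fraction. Its log2 differences of -0.61, 0.62 and 0.40 at the Oct4, Klf4 and EpCAM gates were all under the call. Its 2 other probe sets did not exceed 4.24 and were below the floor.

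Eomes, a T-box factor of trophoblast stem cells and early mesoderm, had levels of 3.27 in the Oct4-negative, 2.71 in the Oct4+Klf4-negative, 4.50 in the Oct4+Klf4+EpCAM-negative and 3.98 in the Oct4+Klf4+EpCAM+ fraction. The highest of these fell just short of the floor, so the log2 difference of 1.79 at the Klf4 gate was not called. The second probe set had the same shape at lower levels, 2.58, 2.23, 3.60 and 3.33 in gate order. Cdx2, the homeodomain factor at the head of the trophectoderm circuit, had levels between 2.69 and 2.92 by its brighter probe set and between 2.64 and 2.70 by the other. Every one of them was within the background, as was the highest level of its paralogs Cdx1 and Cdx4, 2.61 and 1.95.

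Counted over all 9 genes, 0 were higher and 2 lower at the Oct4 gate (Tfap2a and Gata2), where 2.25% of all named genes were called higher and 3.04% lower (3.59% and 4.84% of measured genes). At the Klf4 gate 4 were higher (Hand1, Tfap2c, Gata3 and Tfap2a) and 0 lower, with 5.3% and 4.32% of all named genes called (8.44% and 6.88% of measured genes). Past the EpCAM gate 2 were higher (Elf5 and Tfap2c) and 0 lower, with 1.95% and 1.12% of all named genes called (3.11% and 1.78% of measured genes). Between the ends of the series, Oct4+Klf4+EpCAM+ against Oct4-negative, 3 were higher (Tfap2c, Hand1 and Elf5) and 0 lower, with 7.46% and 6.77% of all named genes called (11.9% and 10.8% of measured genes). The 4 comparisons share arrays and are not independent of each other. The median log2 difference over the 9 genes was -0.56, 1.31, 0.40 and 0.41 in these 4 comparisons, beside 0.00, 0.01, 0.00 and 0.03 over all named genes. By its brightest probe set each of the 9 genes had a positive difference at the Klf4 gate, as 51.5% of all named genes did. Cdx2 lay within the background, and Gata2 differed by only 0.03, which became -0.04 with centring on measured genes. Another probe set of Elf5 and 1 of Ets2, both below the floor, had differences of -0.27 and -0.16 there.

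**Figure D2:**
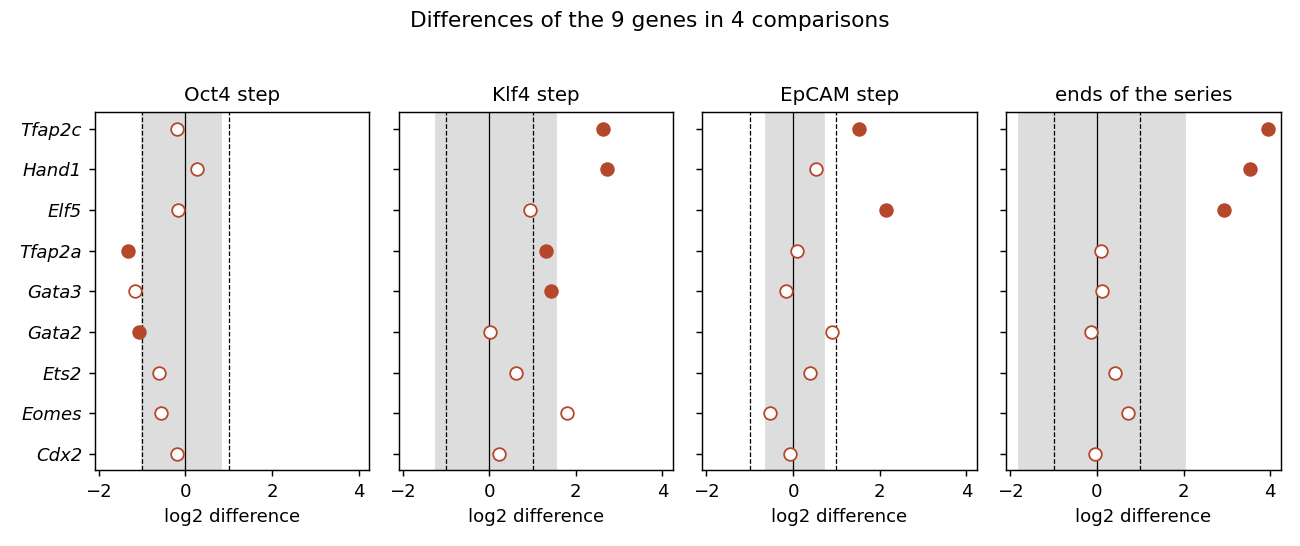
Log2 differences (x axis) of the 9 genes (y axis) at the Oct4, Klf4 and EpCAM gates, each later minus earlier fraction, and between the ends, Oct4+Klf4+EpCAM+ minus Oct4-negative. Filled points are called, open points are not, dashed lines mark 2-fold, and the grey band spans the 5th to the 95th percentile of the 11429 measured genes. Hand1 and Tfap2c stand to the right of the band at the Klf4 gate, Eomes too but without a call, and Elf5, Tfap2c and, without a call, Gata2 at the EpCAM gate. Tfap2a, Gata3 and Gata2 stand to its left at the Oct4 gate.

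The lowest level of a gene often fell in the Oct4+Klf4-negative fraction. For Elf5, whose 2 lowest levels lie in the background, and for Cdx2 that order cannot be read, and Eomes was not measured. Of the other 6 genes 5 had their lowest level there, all but Hand1, beside 26.3% of the 11281 measured genes with no more than 1 level in the background. For 2 of the 5 the gap to the next level was small. Gata2 had 5.30 against 5.33 in the Oct4+Klf4+EpCAM-negative fraction, and Tfap2c 3.19 against 3.39 in the Oct4-negative one. The Oct4+Klf4-negative array had the widest gap between the 3′ and 5′ control probe sets of Gapdh, a sign of RNA integrity and amplification. It was 1.30 on the log2 scale against 0.97 to 1.04 on the others, while the gap for Actb was -0.05 there and -0.07 to -0.06 elsewhere. The part of RNA integrity in the dip was not tested.

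The genes with profiles most like each were found by the Euclidean distance between the 4 levels, each gene centred on its own mean, among the 11429 measured genes. With 4 arrays many profiles can lie close by, and the distances are a description. Nearest to Tfap2c were Slurp1, Kcnk6 and Lin28a, at distances of 0.17 to 0.19. Nearest to Hand1 were Slc52a3, Amz1 and Avil, at 0.11 to 0.12, and nearest to Elf5 were Ovol1, Krt84 and Slc9b1, at 0.16 to 0.19. Tfap2a was closest to Sat1, Cdk18 and Card19 (0.11 to 0.18), and Gata3 to Card19, Cd14 and Hsd17b11 (0.17 to 0.21). Gata2 was closest to Dusp5, Rara and Tnfrsf1a (0.12 to 0.19), and Ets2 to Ror2, Polm and Pip4p1 (0.02 to 0.12). Among the 9 genes themselves the closest pair was Tfap2a and Gata3, at a distance of 0.22, and 0.03% of measured genes lay nearer to Tfap2a than Gata3 did. Ets2 lay 0.57 from Tfap2a and 0.61 from Gata3. Tfap2c and Hand1 lay 0.79 apart, with 0.63% of measured genes nearer to Tfap2c, while Tfap2a and Tfap2c, of 1 family, lay 2.88 apart.

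**Figure D3:**
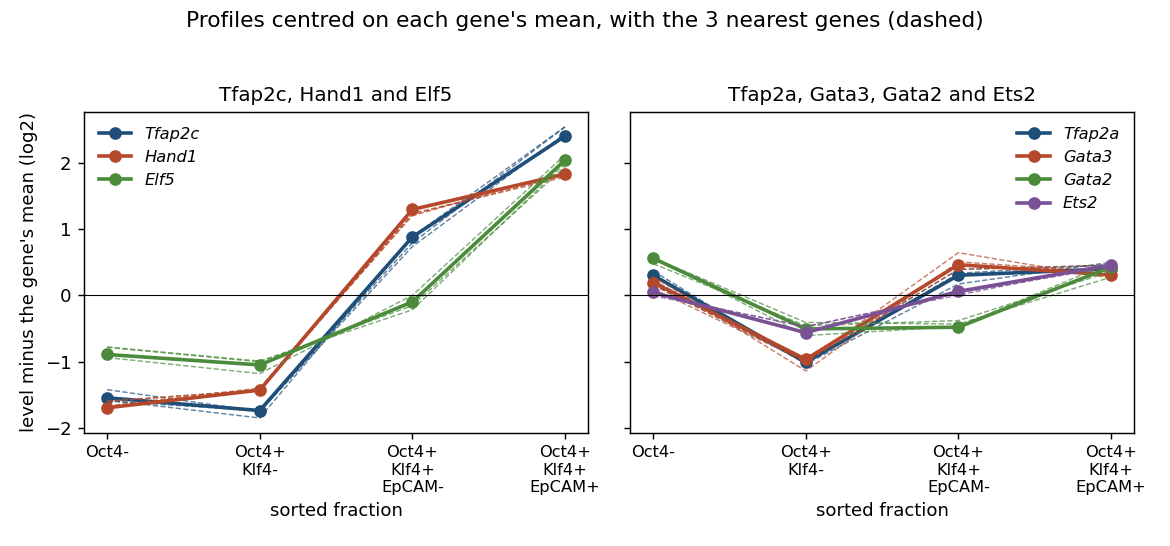
Levels minus the gene's own mean over the 4 arrays (y axis, log2) in the 4 sorted fractions in gate order (x axis), for the 7 measured genes as solid lines, each with its 3 nearest genes as dashed lines of the same colour. On the left Hand1 and Tfap2c part from their lower levels at the Klf4 gate and Elf5 at the EpCAM gate. On the right Tfap2a and Gata3 nearly overlie each other, and Gata2 stays low until the last fraction.

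The paralogs of the 9 genes did not share one direction. In the AP-2 family, Tfap2b, a factor of neural crest and kidney, had levels of 4.52 and 4.01 in the Klf4-positive fractions, against 6.77 and 6.76 before the Klf4 gate, so that it was 4.71-fold lower past the Klf4 gate, where Tfap2a and Tfap2c were higher. Tfap2d did not rise above 2.92. Tfap2e had levels of 3.90, 3.67, 3.85 and 4.81 in gate order, highest in the last fraction, and was not called in any comparison. None of Gata1, Gata4, Gata5 and Gata6, the blood and endoderm members of the GATA family, was measured, with highest levels of 2.83 to 3.50.

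Of the ETS family, 24 genes were on the array and 17 measured. Without Elf5 and Ets2, 15 were measured. At the Oct4 gate 0 of these were higher and 3 lower, beside 3.59% and 4.84% of all measured genes. At the Klf4 gate 4 were higher and 1 lower, beside 8.44% and 6.88%. At the EpCAM gate 0 were lower and 1 was higher, beside 1.78% and 3.11%. That one was Elf3, an epithelial ETS factor, 3.83-fold higher with levels of 3.90, 3.45, 4.28 and 6.22 in gate order, highest like Elf5 in the last fraction. Ets1, the nearest paralog of Ets2 and a factor of endothelium and lymphocytes, was at 7.58, 5.62, 3.54 and 3.14, and its Oct4+Klf4+EpCAM+ level was 21.7-fold below the Oct4-negative one. Elk3, a repressor at serum response genes, was 6.27-fold lower between the same ends, and Etv2, an endothelial and blood regulator, at least 4.18-fold higher. Among 15 T-box genes on the array, 5 were measured. At the Klf4 gate 0 of them were higher and 3 lower, beside 8.44% and 6.88% of all measured genes. Those lower were Tbx3, Tbx4 and Tbx18, factors of limb and other mesenchyme, by 2.86-fold, 2.81-fold and 2.06-fold.

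The list counts that follow stand beside the shares of all measured genes called higher and lower, which were 3.59% and 4.84% at the Oct4 gate, 8.44% and 6.88% at the Klf4 gate, 3.11% and 1.78% at the EpCAM gate, and 11.9% and 10.8% between the ends. Other regulators of the trophoblast were read from a list of 30 genes, 28 on the array and 21 measured. At the Oct4 gate 2 were higher and 1 lower, at the Klf4 gate 4 higher and 2 lower, at the EpCAM gate 1 higher and 2 lower, and between the ends 8 higher and 5 lower. Tead4, which acts above Cdx2 and Gata3 in the embryo, had levels of 5.80, 5.63, 8.18 and 8.77 in gate order and was 5.83-fold higher at the Klf4 gate. Like Hand1 it was higher in both Klf4-positive fractions, while Cdx2 stayed at background. Grhl1, a grainyhead factor of epithelia, was at 3.46, 3.57, 5.92 and 7.50, 5.10-fold and 2.97-fold higher at the Klf4 and EpCAM gates. Satb1, a chromatin organizer, was at 2.52, 5.46, 7.17 and 6.88, and Bhlhe40, a repressor that promotes giant cell formation, was 3.71-fold higher at the Klf4 gate. Cited1, a transcriptional coactivator of the placenta, took another course, with 5.22, 9.85, 7.54 and 5.57. It was 24.7-fold higher in the Oct4+Klf4-negative than in the Oct4-negative fraction. In that comparison 0 of the 9 trophoblast factors were called higher and 2 lower. Esx1, Esrrb, Sox21, Dlx4, Ovol2, Rhox9 and Vgll1 were below the floor on every array.

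Of 14 trophoblast signalling and surface genes on the array, all measured, 8 were higher and 2 lower at the Klf4 gate, 4 higher and 1 lower at the EpCAM gate, and 0 higher and 3 lower at the Oct4 gate. This list's median log2 difference was 1.25 at the Klf4 gate, against 0.04 over all measured genes, of which 8.44% were called higher. Plet1, a surface protein of trophoblast progenitors and of hair follicle, was at 3.10, 3.08, 6.78 and 8.36 in gate order and 12.9-fold higher at the Klf4 gate. Cdh1, which encodes E-cadherin, was 9.49-fold higher there and 4.04-fold higher at the EpCAM gate. Spint1, a protease inhibitor of the placenta and other epithelia, was 2.38-fold and 4.10-fold higher at these gates. Epcam belongs to the list too, but its protein was sorted on. Fgfr2, the receptor through which FGF4 maintains trophoblast stem cells, went the other way, with 6.87, 4.69, 3.56 and 2.83, and was at least 15.2-fold lower in the Oct4+Klf4+EpCAM+ than in the Oct4-negative fraction.

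Of 42 listed products of differentiated trophoblast 33 were on the array and 19 of these stayed below the floor throughout. They included the spongiotrophoblast gene Tpbpa, the placental cathepsins Ctsq, Ctsj, Ctsm and Ctsr, the prolactin family genes Prl8a9, Prl7a1, Prl4a1 and Prl8a8, the pregnancy-specific glycoproteins Psg17 and Psg19, and Plac1 and Peg10, and 16 of the 19 were within the background everywhere. Among the 14 measured genes 1 was higher and 4 lower at the Oct4 gate, with a median log2 difference of -0.35. At the Klf4 gate 5 were higher and 0 lower, beside 8.44% and 6.88% of all measured genes, and at the EpCAM gate 6 were higher and 0 lower, beside 3.11% and 1.78%. Those with the largest differences are also expressed in other epithelia or tissues: the keratin genes Krt8 (5.53, 5.94, 9.50 and 11.34 in gate order) and Krt19 (9.04, 6.74, 9.41 and 10.85), Podxl, a sialomucin of kidney podocytes and pluripotent cells (5.78, 5.92, 9.27 and 9.28), the prostaglandin transporter Slco2a1 (4.95, 4.50, 8.01 and 8.22) and Plac8 (3.84, 5.86, 5.45 and 6.02). Krt19, 1 of the 4 genes lower at the Oct4 gate, had the dip of Tfap2a and Gata3, and Krt8 and Podxl did not.

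Regulators of surface ectoderm and keratinocytes were included because AP-2 factors and Gata3 also act there. Of 15 on the array 11 were measured, with 0 higher and 1 lower at the Oct4 gate, 3 higher and 1 lower at the Klf4 gate, 4 higher and 0 lower at the EpCAM gate, and 6 higher and 2 lower between the ends. Grhl2, Grhl3 and Ovol1, regulators of epithelial identity and barrier, were 6.17-fold, 3.14-fold and 4.27-fold higher at the EpCAM gate, where Elf5 and Tfap2c were higher as well. Elf3, described above, is on this list as well, and Eya1, a coactivator of placodes, was 4.56-fold lower at the Klf4 gate. Trp63, the regulator of stratified epithelia, did not exceed 4.26 and was not measured. The list's median level over all 15 genes was 3.90, 3.99, 4.34 and 5.18 in gate order, and its part in the levels of the trophoblast factors was not tested.

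Of 12 direct targets of BMP signalling on the array 9 were measured, all but Smad6, Atoh8 and Nog. At the Oct4 gate 0 were higher and 2 lower, at the Klf4 gate 2 higher and 2 lower, and at the EpCAM gate 0 higher and 1 lower. Id1 and Id4, inhibitors of basic helix-loop-helix factors, were 5.62-fold and 14.4-fold higher at the Klf4 gate, and Id3, of the same family, 2.29-fold lower. Id1 dipped at 5.83 in the Oct4+Klf4-negative fraction, between 7.15 and 8.32. Grem1, a secreted BMP antagonist, was 6.59-fold lower at the EpCAM gate, and Bambi, a decoy receptor, had log2 differences of -0.83, -0.40 and 0.20 at the 3 gates and was 2.03-fold lower between the ends.

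Pluripotency regulators were read from a list of 12 genes, 6 of them measured. Whether each of them opposes trophoblast fate was not tested. Sall4, a zinc finger factor, was at 3.11, 3.53, 7.18 and 8.53 in gate order and 12.6-fold higher at the Klf4 gate, as were Hand1 and Tfap2c by smaller factors. Nr0b1, a nuclear receptor, was at least 10.2-fold higher there. Pou5f1, whose protein was sorted on, hardly differed at the Klf4 gate, by 0.18 on the log2 scale. Both fractions compared there were sorted as Oct4-positive. Tet1, an enzyme of DNA demethylation, was 5.87-fold lower at the same gate, and Utf1 was 3.14-fold higher between the ends. Nanog, Sox2, Tdgf1, Prdm14, Tfcp2l1 and Zfp42 were below the floor on every array, with highest levels of 2.16 to 3.57.

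Regulators of early mesoderm and endoderm, a second setting for Eomes and Hand1, were nearly all unmeasured. Of 18 on the array, 16 were below the floor everywhere, including Mixl1, Gsc, Foxa2, Sox17 and Gata6. The fibroblast markers had 1 gene higher and 9 lower at the Klf4 gate and 0 higher and 5 lower at the EpCAM gate, with Col1a2 (8.27-fold) and Postn (23.3-fold) lower and the proteoglycan gene Dcn (5.12-fold) higher at the Klf4 gate. Their part in the differences of the trophoblast factors was not tested.

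**Figure D4:**
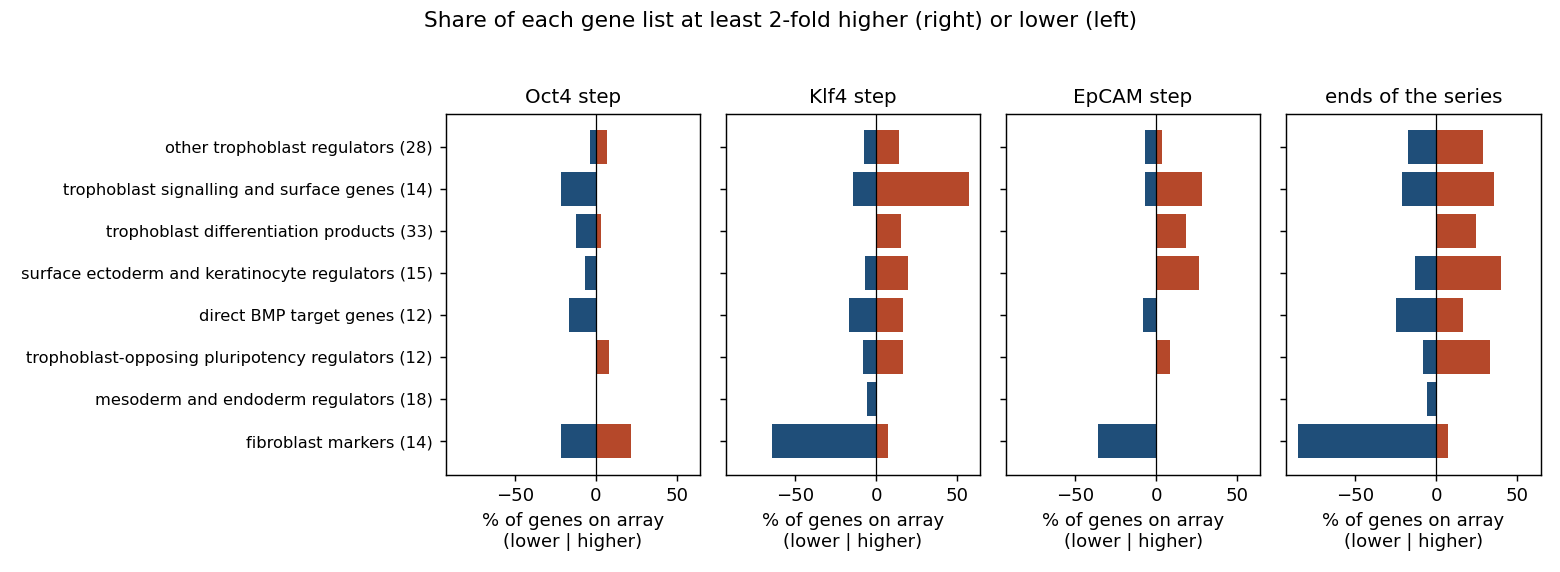
Share of the genes of 8 lists (y axis, number on the array in brackets) called at least 2-fold higher (red, to the right) or lower (blue, to the left) at the Oct4, Klf4 and EpCAM gates and between the ends, as a percentage of the list's genes on the array (x axis). Trophoblast signalling and surface genes stand out to the right at the Klf4 gate, with 8 of 14 higher, and fibroblast markers to the left, with 9 of 14 lower.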

How the data were processed

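RNA of 4 sorted fractions was amplified with the Ovation Pico WTA kit after extraction with the RecoverAll kit, per the labels' protocols, and read on Affymetrix arrays, 1 a fraction. Values are log2 levels made by the authors with RMA, per the submitters' processing notes; its version and settings are not given in the sources used here. Fixation and amplification before the array can change levels according to RNA integrity, and the quantile normalization that RMA generally includes ties the arrays to 1 distribution. Of 45037 probe sets other than 64 controls, 34945 had 1 gene symbol in the platform annotation, 932 had several and were not used, and 9160 were not listed. RefSeq gene identifiers changed 0 symbols. A gene was read by its brightest probe set, that of the highest mean level. Calls, distances and counts were computed in Python 3.11.15 with pandas 2.3.3 and numpy 2.4.6, and the call rule was tested on simulated data. Alternatives covered the probe set chosen, the floor, the fold and the scaling. The 9 genes, the gene lists and the rules were chosen with earlier results of these data known. All probe sets of the 9 genes are given. From each list the text names up to 5 called genes, from those with the largest differences, and genes below the floor. Of the AP-2 family the uncalled Tfap2e is named too.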

Additional observations from a re-analysis of the deposited data

How the results depend on the processing

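No paired analysis was possible because each fraction has 1 array and the differences come from no test. Of the 9 alternatives, only those in the choice of probe set could reverse a called difference of the 9 genes, and none did. Floor and fold leave the differences as they are. The scalings moved each by at most 0.42, too little to reverse a call. Some uncalled differences did change sign, such as that of Gata2 between the ends, from -0.13 to 0.41 by the probe set with the largest range. Of 72 recomputed counts 64 stayed within 1.5 times, but these include counts that were 0 in every setting. Those were the genes higher at the Oct4 gate and lower at the Klf4 gate, the EpCAM gate and between the ends. The 8 that moved were all counts of genes higher at the Klf4 or EpCAM gate or lower at the Oct4 gate. With a higher floor of 6.87, the 75th percentile of the values, the genes called higher were 1 at the Klf4 gate and 1 at the EpCAM gate, and 0 were lower at the Oct4 gate. With 3-fold in place of 2-fold these counts were 2, 1 and 0. At the EpCAM gate 1 gene was higher when probe sets were averaged and 1 when unmarked probe sets alone were used, since Elf5 or Tfap2c then fell short. With no floor Eomes joined the genes higher at the Klf4 gate, 5 in all. Centring on 8 housekeeping genes added 0.35, 0.15 and 0.42 to every log2 difference at the Klf4 gate, the EpCAM gate and between the ends, which brought Gata2 at the EpCAM gate to 1.06, a call. Ranking nearest genes by Pearson correlation kept at most 1 of the 3 nearest genes of any of the 7 measured factors. Signal near background limits Elf5, Eomes, Cdx2, Gata3 and the lower levels of Tfap2c. The median SD between probe sets of a gene, 0.12 to 0.18 on the log2 scale, holds no variation between cultures or sorts.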

Other observations

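Regulators of 3 further settings of these factors were read as values. Of 12 neural crest regulators, where Tfap2a and Ets1 act, 10 were measured, and 5 were lower and 0 higher between the ends, Oct4+Klf4+EpCAM+ against Oct4-negative, beside 10.8% and 11.9% of all measured genes. They were Ets1 and Tfap2b, already given as paralogs of the trophoblast factors, Snai1 (5.47-fold), Snai2 (5.23-fold) and Sox9 (2.83-fold). The crest regulators Foxd3 and Pax7 were within the background. Of 14 genes that work with GATA factors in blood, 4 were measured, and Tal1, Lmo2, Kit and Klf1 were within the background on every array. Cd34, a surface protein of blood progenitors and of some fibroblasts, was at 5.75, 2.30, 2.57 and 2.81 in gate order. Of 8 T cell and innate lymphoid genes on the array 2 were measured, and Bcl11b, also a regulator of skin and neurons, was at 4.49, 6.32, 7.61 and 7.65.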
